A study of Rattus norvegicus with 12 samples.

Results

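The genes of mitosis, the spindle and the G2/M transition were followed in rat XEN cells of the Fisher strain, an extraembryonic endoderm stem cell line. The 40 genes of the list were found by their symbols in the platform's probe annotation, with older symbols brought up to date. Of these, 39 were measured among the 16623 genes of the table. Birc5, a subunit of the chromosomal passenger complex, had no probe set under its symbol and was not analysed here. Cdk1 and Ncapg stood under older symbols. Each gene was given the median of the deposited log2 signals of its probe sets, which numbered 3 to 46 per member.

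The 12 arrays formed 4 groups of 3. Cells of the combination group were kept for 2 days with 3 µM CHIR99021, which blocks the kinase GSK3 and so activates Wnt/beta-catenin signalling, joined by 10 µM forskolin, an activator of adenylate cyclase, on the last day. The CHIR group received the inhibitor alone for 2 days, the forskolin group received forskolin alone for 1 day, and control cells received neither compound. Every group spent the last day in medium with 0.1% serum, the controls included. CHIR and forskolin thus differed in the length of exposure as well as in the compound, and pathway and exposure length cannot be told apart. The 3 parallels of a group are not stated to be separate cultures, so the spread behind the p-values is that between samples and may be technical.

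Entry into mitosis is driven by the kinase CDK1 bound to A- and B-type cyclins. Polo-like and Aurora kinases then build the spindle, kinetochores tie chromosomes to its microtubules, and the checkpoint holds back the anaphase-promoting complex until every chromosome is attached. Most of these genes are transcribed late in the cell cycle, and their mRNAs are low in resting cells, so they are widely used as a sign of cycling cells. In bulk RNA, more cells in G2 or mitosis and more mRNA per such cell cannot be told apart.

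The cell label was set against defining markers. All 13 extraembryonic endoderm markers lay above the background reference of 6.41, the 95th percentile of 1099 olfactory receptor genes. Gata4, an endoderm transcription factor, averaged 12.39 ± 0.06 in the combination group, 12.26 ± 0.02 with CHIR, 12.39 ± 0.04 with forskolin and 12.31 ± 0.02 in controls (log2, SD, n = 3 each). The mean of the 13 endoderm markers moved with CHIR, at 11.91 to 11.94 on the combination arrays, 11.91 to 11.98 on the CHIR arrays, 12.22 to 12.29 on the forskolin arrays and 12.23 to 12.32 on the control arrays, and its part in the results for the mitotic genes was not tested. Of these markers 1 was higher and 8 lower in the combination, 2 higher and 9 lower with CHIR, and 1 higher and 1 lower with forskolin. The shares of all genes were 14.3% and 14.7% in the combination, 14.3% and 13.9% with CHIR, and 6.07% and 8.92% with forskolin. Of the other cell type markers measured, 1 of 5 pluripotency genes, 2 of 7 trophoblast genes and 1 of 8 fibroblast genes passed that reference in any group. The list means of these markers per group ran from 6.00 to 6.17 for pluripotency, from 5.84 to 6.16 for trophoblast and from 5.77 to 5.85 for fibroblasts. Axin2, a target of beta-catenin, averaged 8.66 ± 0.35 in the combination group, 8.64 ± 0.08 with CHIR, 5.95 ± 0.13 with forskolin and 5.75 ± 0.15 in controls. Crem, a target of cAMP signalling, averaged 9.90 ± 0.13 in the combination group, 8.60 ± 0.19 with CHIR, 10.18 ± 0.15 with forskolin and 8.73 ± 0.15 in controls. Axin2 and Crem came from a list of 8 treatment check genes, with Lgr5, Tcf7, Sik1, Cdh1, Hnf4a and Plat. Lgr5 and Tcf7, both higher with CHIR, were lower in the combination than with CHIR alone, at -0.97 and -0.85 (adjusted p = 0.000194 and 0.00167, limma). Sik1 differed from control by 2.37 with forskolin, -1.32 with CHIR and 0.54 in the combination, and from CHIR by 1.87 in the combination. Array medians lay between 7.76 and 7.86, and arrays of a group correlated at 0.995 to 0.997.

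The promoters of the members often held letters described for G2/M genes, the class from which the list was drawn. In human and mouse cells many G2/M genes carry a cell cycle genes homology region (CHR), the element bound by the MuvB complexes, together with CCAAT boxes bound by NF-Y. RefSeq promoter windows of assembly GRCr8, from 250 bases before to 50 after the annotated start, were found for 34 of the 39 measured members. The other 5 are Ccna2, Aurkb, Tpx2, Racgap1 and Ube2c. Below are the 120 bases before the start of 7 genes, 5′ to 3′ on the strand of the gene. Cdk1, Ccnb1, Ccnb2 and Plk1 are shown as the central mitotic regulators, Prc1 and Cenpe as genes with large responses to CHIR, and Cdc25b as a member without a CHR match. Capitals mark CHR letters (TTTGAA or TTTAAA) and CCAAT, on either strand, so that ATTGG is CCAAT read on the other strand.
Cdk1 (chr20:19265173-19265292, plus strand): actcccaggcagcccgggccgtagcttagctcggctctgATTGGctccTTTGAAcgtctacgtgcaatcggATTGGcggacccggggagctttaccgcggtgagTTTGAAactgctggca
Ccnb1 (chr2:33655226-33655345, minus strand): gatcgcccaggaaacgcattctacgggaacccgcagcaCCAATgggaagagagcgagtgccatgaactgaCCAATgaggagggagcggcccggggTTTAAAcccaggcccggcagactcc
Ccnb2 (chr8:79981659-79981778, minus strand): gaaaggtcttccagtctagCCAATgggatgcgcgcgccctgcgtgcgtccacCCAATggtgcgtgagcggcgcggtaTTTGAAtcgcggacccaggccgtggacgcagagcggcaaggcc
Plk1 (chr1:186147538-186147657, plus strand): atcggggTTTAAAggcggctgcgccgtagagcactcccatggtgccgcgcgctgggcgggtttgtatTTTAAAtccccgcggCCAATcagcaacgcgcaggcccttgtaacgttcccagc
Prc1 (chr1:143659361-143659480, plus strand): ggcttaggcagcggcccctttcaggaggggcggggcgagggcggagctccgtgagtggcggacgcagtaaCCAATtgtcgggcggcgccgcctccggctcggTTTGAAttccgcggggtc
Cenpe (chr2:226310937-226311056, plus strand): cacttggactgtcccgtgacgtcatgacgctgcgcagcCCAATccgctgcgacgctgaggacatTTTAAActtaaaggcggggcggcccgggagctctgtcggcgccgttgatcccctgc
Cdc25b (chr3:138860053-138860172, plus strand): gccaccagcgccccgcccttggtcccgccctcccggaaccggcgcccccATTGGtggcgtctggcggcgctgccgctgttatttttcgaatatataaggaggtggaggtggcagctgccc

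A CHR match on either strand was present in 32 of the 34 member promoters (94.1%), against 7664 of 27457 promoters in the whole table (27.9%). CCAAT was present in 26 (76.5%), against 37.7% of all promoters. Both kinds of letters occurred in 24 of the 34 (70.6%), against 11.1% of all promoters (a base shared between the words was allowed). In Ccnb2 the 3 CCAAT words began at -134, -101 and -68 from the start and CHR letters at -214 and -43, so the farthest of each lies outside the stretch printed above. In Ccnb1 CCAAT began at -82 and -50 and the CHR letters at -25. Cdc25b and Cdca3 had no CHR match in this window. The E2F words TTCCCGC or TTGGCGC, on either strand, were present in 5 members (14.7%), against 6.67% of all promoters. The word GGCGG, which can overlap an E2F word, was present in 31 (91.2%), against 48.8%. Member promoters were richer in G and C, with a median of 58.3% against 52.3% over the table, and GGCGG is itself made of these bases. These matches describe letters in a window and are not measured binding sites.

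With CHIR the mitotic genes rose almost throughout. Of the 39 members, 35 were higher in CHIR cells than in control cells and 0 were lower by limma with Benjamini-Hochberg adjustment over all genes (0 lower also at an unadjusted p under 0.05). Over all genes, 14.3% were called higher and 13.9% lower. The median log2 difference of the members was 0.53, against 0.013 over all genes. All 39 differences lay above 0, from 0.05 for Cdc25c to 1.15 for Cenpe, a range of 1.03- to 2.22-fold. In 35 members the 3 CHIR arrays all lay above the 3 control arrays, against 19.9% of all genes. The 4 members not called were Cdc25c, Cdca3, Cenpf and Ncapd2.

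With forskolin alone the same family shifted the other way, with smaller differences. Forskolin cells had 22 of the 39 members lower than control cells and 0 higher (1 higher and 27 lower at an unadjusted p under 0.05, limma). Over all genes, 8.92% were called lower and 6.07% higher. The median difference of the members was -0.36, against -0.004 over all genes. The largest falls were those of Cdc20 (-0.72), Cenpf (-0.69), Cdca3 (-0.69), Cdk1 (-0.62) and Kif23 (-0.62). Groups did not overlap, forskolin lower, for 28 members, against 17.2% of all genes, and for 1 member, Anln, the forskolin arrays were all higher (13.6% of all genes). The count of lower members depended on the probe sets used: when genes were read from their brightest probe set instead of the median, 13 of 39 passed. Genes of the whole table called lower then numbered 899, against 1483 with the median. Without the second forskolin array 15 members passed, with 1151 genes of the table called lower. With arrays centred on their medians the split of called genes over the whole table moved to 1204 higher and 1167 lower, against 1009 higher and 1483 lower as deposited, and the members' median difference was -0.32.

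In cells given both compounds most members stood above control, as they did with CHIR. The combination had 35 of 39 members higher than control and 0 lower (1 lower at an unadjusted p under 0.05, limma), where 14.3% of all genes were called higher and 14.7% lower. The median difference was 0.60, and in 35 members the combination arrays all lay above the control arrays, against 20.8% of all genes. Against CHIR alone, the combination had 2 members higher and 1 lower, with 6.51% of all genes called higher and 7.35% lower, and the members' median difference was 0.02. The 95% interval of that difference held 0 for 31 members and lay wholly within 0.5 of 0 for 35. The share of all genes with such intervals was not computed, and most genes of the table were not called in this comparison. Against forskolin alone, all 39 members were higher in the combination, where 16.4% of all genes were called higher and 13.6% lower, with a median of 0.99 and at least 1 log2 unit in 18 members. CHIR alone set directly against forskolin alone had 38 members higher, where 19.5% of all genes were called higher and 15.7% lower, with a median of 0.92. These comparisons share arrays and are not independent of each other.

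**Figure D1:**
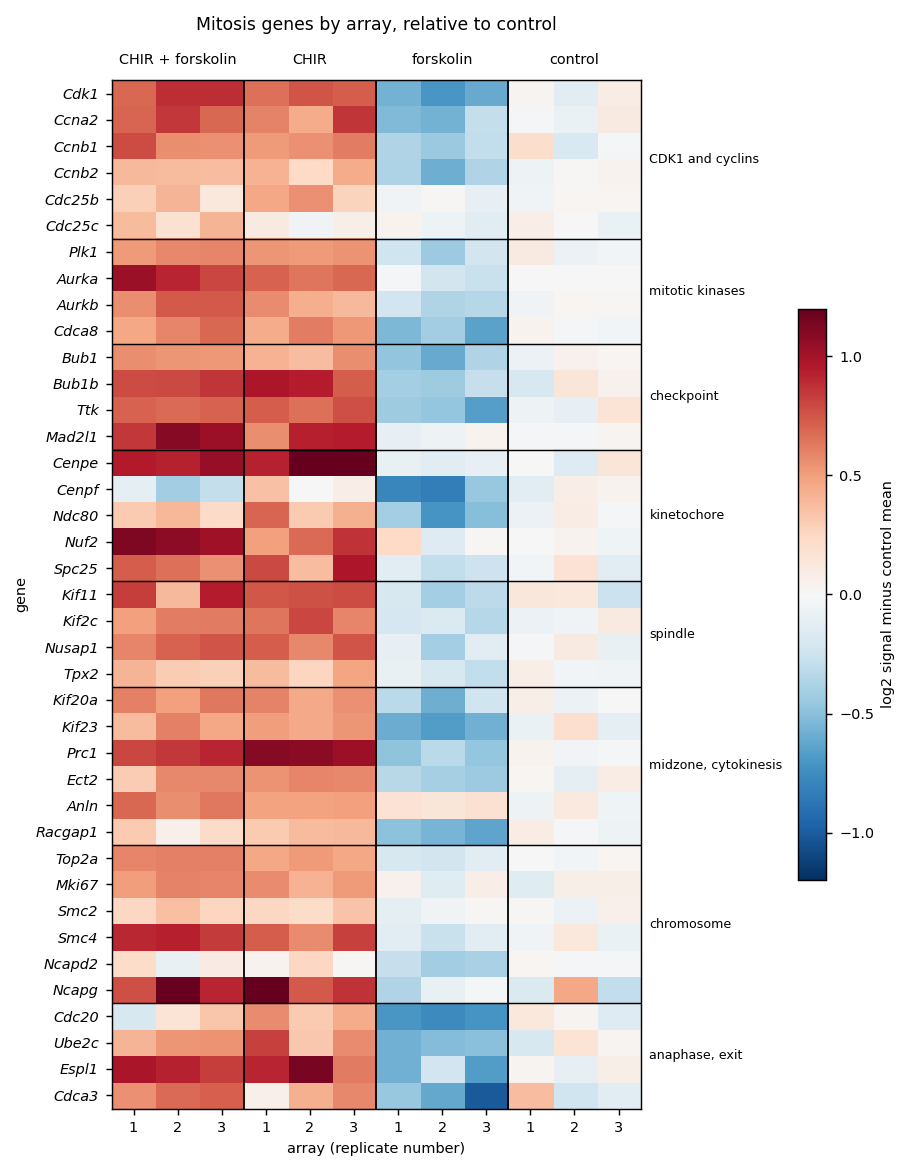
Log2 signal of the 39 measured members on each of the 12 arrays minus the mean of the 3 control arrays, with members in rows by role and arrays in columns by group; the colour runs from 1.2 lower (blue) to 1.2 higher (red), and values beyond take the end colour. The combination and CHIR columns are higher than control for nearly every row, and most rows are lower in the forskolin columns.

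Averaged over the 39 members, the 3 combination arrays stood at 10.87, 10.89 and 10.90, the CHIR arrays at 10.89, 10.84 and 10.90, the forskolin arrays at 10.01, 9.94 and 9.98 and the control arrays at 10.30, 10.32 and 10.29. The combination and CHIR arrays overlapped and lay above every control array, and all forskolin arrays lay below them. The forskolin mean was the lowest of the 4 groups in 37 members and the control mean in the other two, Anln and Nuf2. The highest mean was that of the combination in 20 members and that of CHIR in 19. All 39 members were above the background reference on every array.

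Cdk1, the kinase that drives entry into mitosis, was among the members with the widest range across groups. Cdk1 read 10.98, 11.17 and 11.17 on the combination arrays, 10.95, 11.04 and 11.01 on the CHIR arrays, 9.72, 9.59 and 9.68 on the forskolin arrays and 10.32, 10.16 and 10.38 on the control arrays. Combination and CHIR arrays overlapped, both lay above all control arrays, and the forskolin arrays were the lowest. Cdk1 was higher with CHIR by 0.71 (SE 0.0842, adjusted p = 1.58e-05), lower with forskolin at -0.62 (SE 0.0842, adjusted p = 0.000147), and higher in the combination by 0.82 (SE 0.0842, adjusted p = 4.44e-06). Ccnb1 read 11.17, 10.94 and 10.93 on the combination arrays, 10.89, 10.93 and 11.00 on the CHIR arrays, 10.02, 9.94 and 10.09 on the forskolin arrays and 10.59, 10.20 and 10.36 on the control arrays. Ccnb1, cyclin B1, is the main CDK1 partner at mitotic entry, and its groups followed the same order as Cdk1, with the control arrays between. The difference from control was 0.63 (SE 0.102, adjusted p = 0.000285) in the combination, 0.55 (SE 0.102, adjusted p = 0.000814) with CHIR and -0.37 (SE 0.102, adjusted p = 0.0251) with forskolin.

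Among the other members of this role, Ccna2 (cyclin A2, of S phase and G2) rose by 0.63 with CHIR and fell by 0.46 with forskolin. Ccnb2, cyclin B2, rose by 0.37 and fell by 0.44 in those comparisons. Cdc25b and Cdc25c encode phosphatases that activate CDK1. Cdc25b rose by 0.43 with CHIR and had -0.04 with forskolin (adjusted p = 0.831). Cdc25c had 0.05 with CHIR (95% interval -0.14 to 0.23), where 9 of its 16 probe sets lay above 0, and was higher by 0.32 in the combination than in control (adjusted p = 0.0111). Against CHIR alone Cdc25c was higher in the combination by 0.28 (adjusted p = 0.0487). This call was lost when most single arrays of any group were left out, those of the control and forskolin groups included, with adjusted p between 0.0552 and 0.17. It was also lost with the brightest probe set (adjusted p = 0.171) and with only these groups in the fit (adjusted p = 0.0958). In this role 5 of 6 members were higher with CHIR and 4 of 6 lower with forskolin.

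Plk1, the polo-like kinase needed for spindle assembly and cytokinesis, rose by 0.53 (SE 0.0796, adjusted p = 0.000149) with CHIR and by 0.56 (SE 0.0796, adjusted p = 9.72e-05) in the combination, and fell by 0.30 with forskolin (SE 0.0796, adjusted p = 0.0205). Plk1 read 11.99, 12.05 and 12.06 on the combination arrays, 12.01, 11.99 and 12.02 on the CHIR arrays, 11.24, 11.04 and 11.26 on the forskolin arrays and 11.58, 11.41 and 11.44 on the control arrays. The forskolin arrays lay below all others and the control arrays between. Aurkb read 10.70, 10.88 and 10.88 on the combination arrays, 10.71, 10.58 and 10.53 on the CHIR arrays, 9.91, 9.78 and 9.80 on the forskolin arrays and 10.10, 10.17 and 10.16 on the control arrays. Combination and CHIR arrays overlapped at the top, and the forskolin arrays lay below all control arrays. Aurkb is the kinase of the chromosomal passenger complex, which corrects faulty attachments of chromosomes. Its combination mean was the highest of the 4, at 0.68 (SE 0.0812, adjusted p = 1.9e-05) above control, against 0.47 (SE 0.0812, adjusted p = 0.000484) with CHIR and -0.31 (SE 0.0812, adjusted p = 0.019) with forskolin. Cdca8 (borealin, of the same complex) rose by 0.52 with CHIR and fell by 0.53 with forskolin. Aurka, the kinase of the spindle poles, rose by 0.68 with CHIR and by 0.91 in the combination, and had -0.17 with forskolin (adjusted p = 0.218). All 4 measured kinase and passenger genes were higher with CHIR and 3 of 4 were lower with forskolin.

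The 4 checkpoint genes encode the machinery that delays anaphase. Mad2l1 (MAD2) showed the least difference with forskolin among them. Mad2l1 read 10.49, 10.73 and 10.67 on the combination arrays, 10.20, 10.57 and 10.58 on the CHIR arrays, 9.54, 9.58 and 9.68 on the forskolin arrays and 9.63, 9.62 and 9.67 on the control arrays. Forskolin and control arrays overlapped, and both CHIR-treated groups lay above them. Mad2l1 was higher by 0.99 (SE 0.103, adjusted p = 5.31e-06) in the combination and by 0.81 (SE 0.103, adjusted p = 3.38e-05) with CHIR, and had -0.04 with forskolin (95% interval -0.26 to 0.18). Bub1, Bub1b and Ttk, the other checkpoint proteins, rose by 0.45, 0.89 and 0.72 with CHIR and fell by 0.48, 0.36 and 0.52 with forskolin.

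Kinetochore genes varied among themselves. Cenpe, a motor that carries chromosomes to the spindle equator, had the largest rise with CHIR of all 39 members, at 1.15 (SE 0.104, adjusted p = 1.22e-06), which is 2.22-fold. Cenpe read 10.41, 10.38 and 10.51 on the combination arrays, 10.38, 10.68 and 10.78 on the CHIR arrays, 9.37, 9.32 and 9.36 on the forskolin arrays and 9.46, 9.31 and 9.61 on the control arrays. Both CHIR-treated groups lay above all other arrays, and forskolin and control arrays overlapped. Nuf2, of the NDC80 complex that grips microtubules, was instead highest in the combination, at 1.07 (SE 0.107, adjusted p = 3.53e-06) above control and 0.39 (SE 0.107, adjusted p = 0.0255) above CHIR alone. Nuf2 read 10.83, 10.79 and 10.73 on the combination arrays, 10.21, 10.39 and 10.58 on the CHIR arrays, 9.95, 9.56 and 9.73 on the forskolin arrays and 9.72, 9.76 and 9.66 on the control arrays. All 3 combination arrays lay above the CHIR arrays, and the forskolin and control arrays overlapped. The call against CHIR alone was lost without replicate 1 or 2 of CHIR or of the combination, with adjusted p between 0.0674 and 0.122.

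Cenpf, a large protein of the nuclear matrix and outer kinetochore, was among the members not called with CHIR. Cenpf read 9.69, 9.38 and 9.51 on the combination arrays, 10.15, 9.80 and 9.88 on the CHIR arrays, 9.01, 8.97 and 9.34 on the forskolin arrays and 9.67, 9.88 and 9.84 on the control arrays. The forskolin arrays were the lowest, and combination and CHIR arrays each overlapped the control arrays. It was lower with forskolin by 0.69 on the log2 scale (SE 0.122, adjusted p = 0.00146) and had 0.14 with CHIR (95% interval -0.12 to 0.41). It was the 1 member called lower in the combination than with CHIR alone, at -0.42 (SE 0.122, adjusted p = 0.037), and its combination arrays all lay below the CHIR arrays. That call was lost without replicate 1 or 3 of CHIR or replicate 2 or 3 of the combination (adjusted p 0.0549 to 0.164), with the mean of probe sets (-0.29, adjusted p = 0.0574), with the brightest of them (-0.14, adjusted p = 0.425) and with only these groups in the fit (adjusted p = 0.0523). With the brightest probe set in place of the median, the difference of Cenpf between the combination and forskolin was -0.05, against 0.42 with the median. Ndc80 and Spc25, partners of Nuf2, rose by 0.48 and 0.71 with CHIR. Ndc80 fell by 0.54 with forskolin, while Nuf2 had 0.04 and Spc25 -0.23 there, neither past the threshold.

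**Figure D2:**
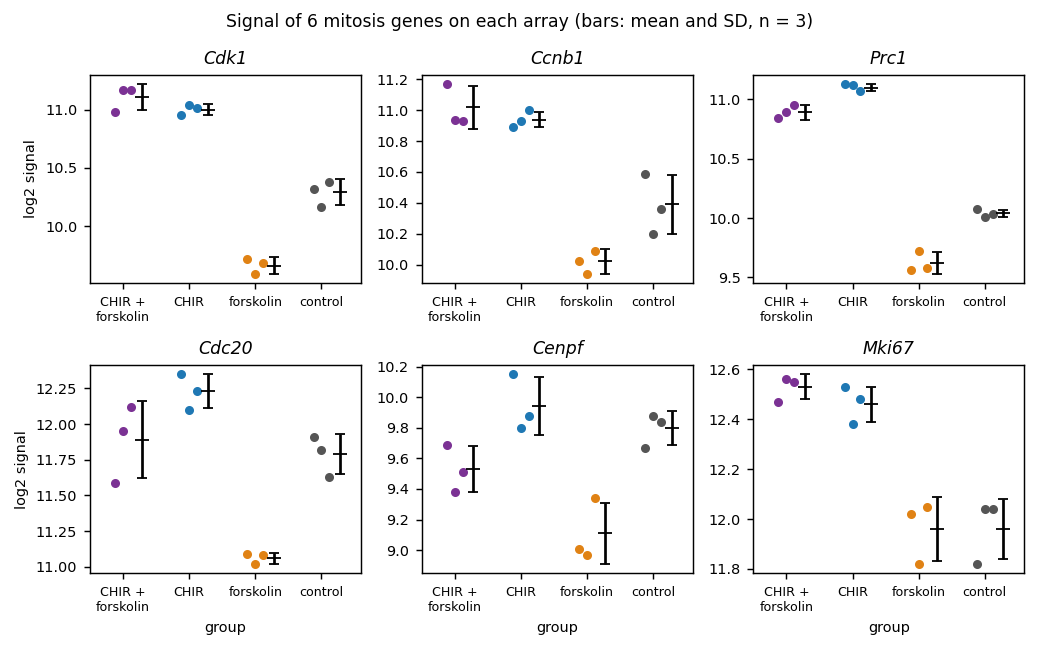
Log2 signal of Cdk1, Ccnb1, Prc1, Cdc20, Cenpf and Mki67 on each array (points) with the mean and SD of the 3 arrays of a group (black); each panel has its own vertical range, which does not start at 0. Forskolin arrays lie lowest in all panels but that of Mki67, where they overlap the control arrays, and the combination arrays of Prc1 and Cenpf lie below the CHIR arrays.

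The 4 spindle genes rose with CHIR without a called change under forskolin. Kif11, the motor that pushes spindle poles apart, rose by 0.76 with CHIR, Kif2c, a microtubule depolymerase, by 0.67, Nusap1, which bundles microtubules, by 0.69 and Tpx2, an activator of Aurora A, by 0.37. Their forskolin differences were -0.30, -0.24, -0.21 and -0.19, with adjusted p between 0.0786 and 0.18, and all 4 had an unadjusted p under 0.05 there. A test of whether roles differ was not run.

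Genes of the midzone and cytokinesis act as the cell divides after anaphase. Prc1, which bundles the microtubules of the midzone, rose by 1.07 (SE 0.0726, adjusted p = 6.29e-08) with CHIR and by 0.85 (SE 0.0726, adjusted p = 7.08e-07) in the combination, and fell by 0.42 with forskolin (adjusted p = 0.00119). Prc1 read 10.84, 10.89 and 10.95 on the combination arrays, 11.13, 11.12 and 11.07 on the CHIR arrays, 9.56, 9.72 and 9.58 on the forskolin arrays and 10.08, 10.01 and 10.03 on the control arrays. All combination arrays lay between the CHIR and the control arrays, and the forskolin arrays were the lowest. The difference of the combination from CHIR was -0.21 (adjusted p = 0.0699). The other members here were Kif20a and Kif23 (midzone motors), Ect2 and Racgap1 (regulators of RhoA at the cleavage site) and Anln (the scaffold of the contractile ring). All 6 were higher with CHIR, by 0.36 to 1.07, and 5 were lower with forskolin, with differences of -0.39 to -0.62. Anln had 0.17 with forskolin (95% interval 0.01 to 0.33, adjusted p = 0.164), with 18 of its 21 probe sets above 0. Racgap1 was not called in the combination against control, at 0.20 (adjusted p = 0.0923).

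Of the genes that act on chromosomes, Mki67, the coat protein of mitotic chromosomes behind the Ki-67 stain, rose with CHIR, while its difference with forskolin was near 0. Mki67 read 12.47, 12.56 and 12.55 on the combination arrays, 12.53, 12.38 and 12.48 on the CHIR arrays, 12.02, 11.82 and 12.05 on the forskolin arrays and 11.82, 12.04 and 12.04 on the control arrays. Both CHIR-treated groups lay above the other arrays, and the forskolin and control arrays overlapped. Mki67 was higher by 0.56 (SE 0.0889, adjusted p = 0.000234) in the combination and by 0.50 (SE 0.0889, adjusted p = 0.000622) with CHIR, and its forskolin difference was 0.00 (95% interval -0.19 to 0.19). Top2a read 11.89, 11.91 and 11.91 on the combination arrays, 11.77, 11.81 and 11.77 on the CHIR arrays, 11.11, 11.08 and 11.18 on the forskolin arrays and 11.31, 11.27 and 11.33 on the control arrays. The combination arrays were the highest and the forskolin arrays the lowest, and no groups overlapped. Top2a, the topoisomerase that untangles sister chromatids, was higher by 0.60 (SE 0.066, adjusted p = 8.89e-06) in the combination and by 0.48 (SE 0.066, adjusted p = 6.33e-05) with CHIR, and had -0.18 with forskolin (adjusted p = 0.0955).

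Ncapg read 10.31, 10.72 and 10.45 on the combination arrays, 10.95, 10.27 and 10.40 on the CHIR arrays, 9.17, 9.44 and 9.51 on the forskolin arrays and 9.36, 10.00 and 9.24 on the control arrays. Both CHIR-treated groups lay above the other arrays, and the forskolin and control arrays overlapped. Ncapg is a condensin subunit, and its standard error of 0.202 was the widest of the 39 members. The difference from control was 0.96 in the combination (adjusted p = 0.0022) and 1.01 with CHIR (adjusted p = 0.00149). The condensin subunits Smc2 and Smc4 rose by 0.27 and 0.71 with CHIR. Ncapd2, of the same complex, had 0.10 with CHIR (95% interval -0.10 to 0.30) and was the single member of this role lower with forskolin, at -0.36 (adjusted p = 0.0162).

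All 4 members of anaphase and mitotic exit were lower with forskolin. Cdc20, the activator of the anaphase-promoting complex, fell by 0.72 (SE 0.121, adjusted p = 0.000915), which is 1.65-fold. Cdc20 read 11.59, 11.95 and 12.12 on the combination arrays, 12.35, 12.10 and 12.23 on the CHIR arrays, 11.09, 11.02 and 11.08 on the forskolin arrays and 11.91, 11.82 and 11.63 on the control arrays. The forskolin arrays were the lowest, and the combination arrays overlapped both the CHIR and the control arrays. Cdc20 was higher by 0.44 (SE 0.121, adjusted p = 0.0137) with CHIR, and its combination value of 0.10 against control had an adjusted p of 0.619. Against CHIR alone the combination had -0.34 (95% interval -0.60 to -0.08, adjusted p = 0.0865).

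Espl1 read 10.29, 10.23 and 10.14 on the combination arrays, 10.22, 10.45 and 9.93 on the CHIR arrays, 8.73, 9.08 and 8.64 on the forskolin arrays and 9.34, 9.21 and 9.38 on the control arrays. Combination and CHIR arrays overlapped above the control arrays, with the forskolin arrays below. Espl1 is separase, the protease that cleaves cohesin, and was higher by 0.91 (SE 0.132, adjusted p = 0.000114) in the combination and by 0.89 (SE 0.132, adjusted p = 0.000132) with CHIR, and lower with forskolin at -0.49 (SE 0.132, adjusted p = 0.0215). Cdca3 read 10.55, 10.68 and 10.72 on the combination arrays, 10.06, 10.43 and 10.58 on the CHIR arrays, 9.55, 9.39 and 9.00 on the forskolin arrays and 10.37, 9.76 and 9.88 on the control arrays. CHIR arrays overlapped the combination and the control arrays, and the forskolin arrays were the lowest. Cdca3, which takes part in the degradation of WEE1, rested on 3 probe sets. It was lower with forskolin at -0.69 (SE 0.174, adjusted p = 0.0153) and higher by 0.65 (SE 0.174, adjusted p = 0.0113) in the combination, while CHIR alone had 0.35 (adjusted p = 0.163). Ube2c, the ubiquitin-conjugating enzyme of the anaphase-promoting complex, rose by 0.57 with CHIR and fell by 0.53 with forskolin.

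**Figure D3:**
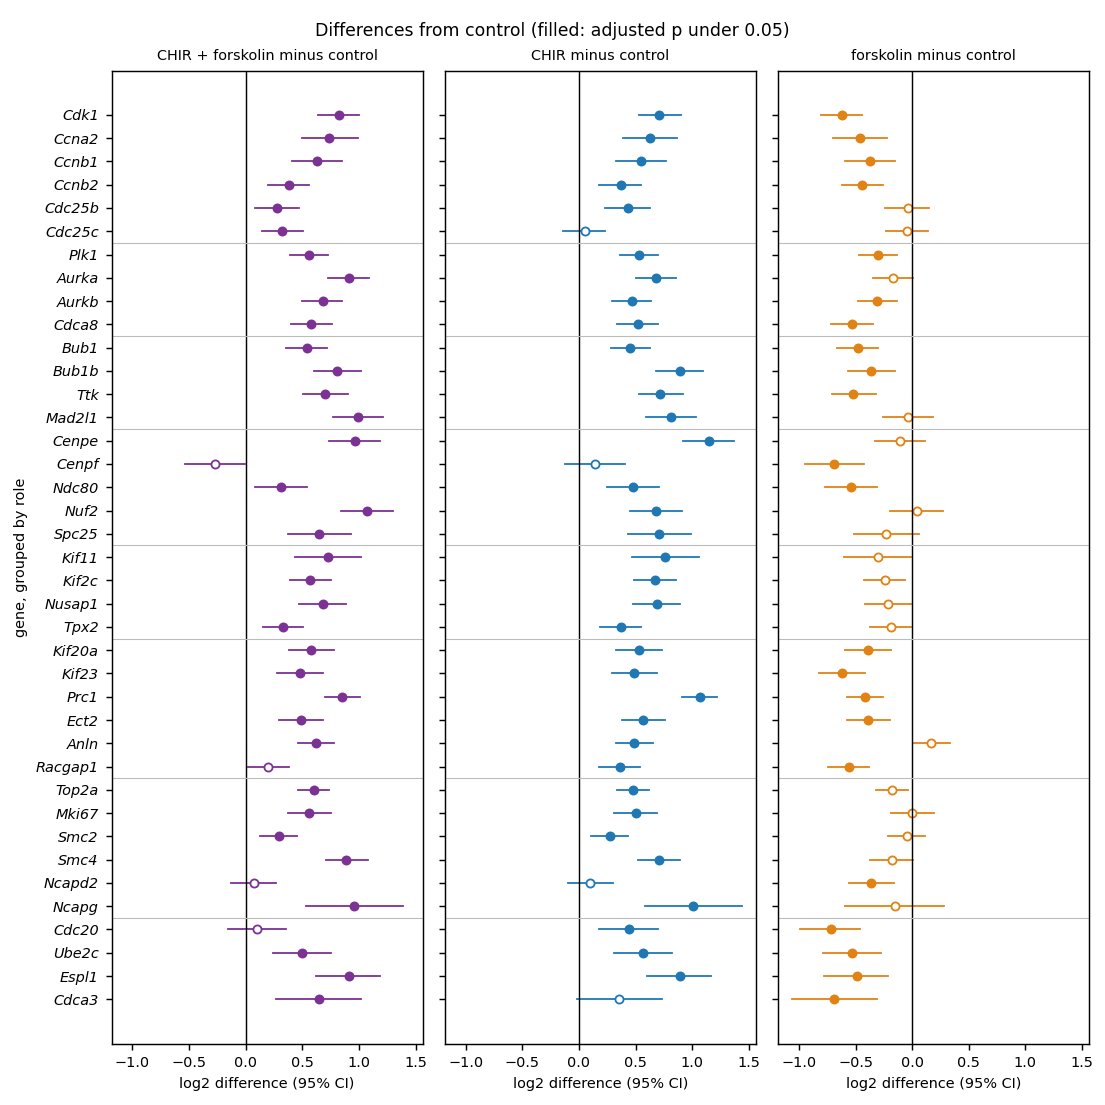
Log2 difference of each member from control with its 95% interval, for the combination, CHIR and forskolin; filled points passed an adjusted p of 0.05 in limma. CHIR and combination points lie to the right of 0 for nearly every member, and forskolin points at or to the left of 0 for all but Anln and Nuf2.

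The difference that forskolin made was compared between cells with and without CHIR by the interaction term. In 9 members it was above 0 past the threshold and in 0 below (0 below also at an unadjusted p under 0.05), with 3.25% of all genes called above and 3.07% below. These were Cdca3 (0.98), Cdk1 (0.73), Kif23 (0.61), Cdca8 (0.59), Ccna2 (0.57), Bub1 (0.56), Aurkb (0.52), Ttk (0.50) and Ccnb2 (0.45), and all 9 were also lower with forskolin alone. The interaction subtracts that same forskolin difference, from the same arrays, so this overlap is partly built in. For Cdk1, forskolin made a difference of 0.11 in cells with CHIR, against -0.62 in cells without it (interaction SE 0.119, adjusted p = 0.00178). For Kif23 the values were -0.01 with CHIR and -0.62 without (interaction adjusted p = 0.0118). The interaction estimate lay above 0 in 36 members, with a median of 0.33, against 0.003 over all genes. Its count depended on how probe sets were joined: 22 members passed with their mean and 2 with the brightest of them. Calls over the whole table moved the same way, with 541 genes above 0 by the median, 1038 by the mean and 304 by the brightest. Without single arrays 6 to 9 passed.

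The 2 estimates of the forskolin difference share no arrays, and over the 39 genes they correlated at 0.40, with 21 genes of the same sign. Genes are not independent replicates, and each estimate carries its own error. The median difference was 0.02 with CHIR and -0.36 without. Of the 22 members lower with forskolin alone, 11 lay below 0 in the combination against CHIR, and Cenpf was the 1 of them that passed. The CHIR difference lay above 0 in all 39 members both with forskolin, where its median was 0.99, and without it, where its median was 0.53, and over the 39 genes these correlated at 0.69. Of the members, 19 were higher with CHIR and lower with forskolin, and 16 were higher with CHIR and not past the threshold with forskolin. The share of all genes with these pairs of calls was not computed, and both calls share the control arrays.

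**Figure D4:**
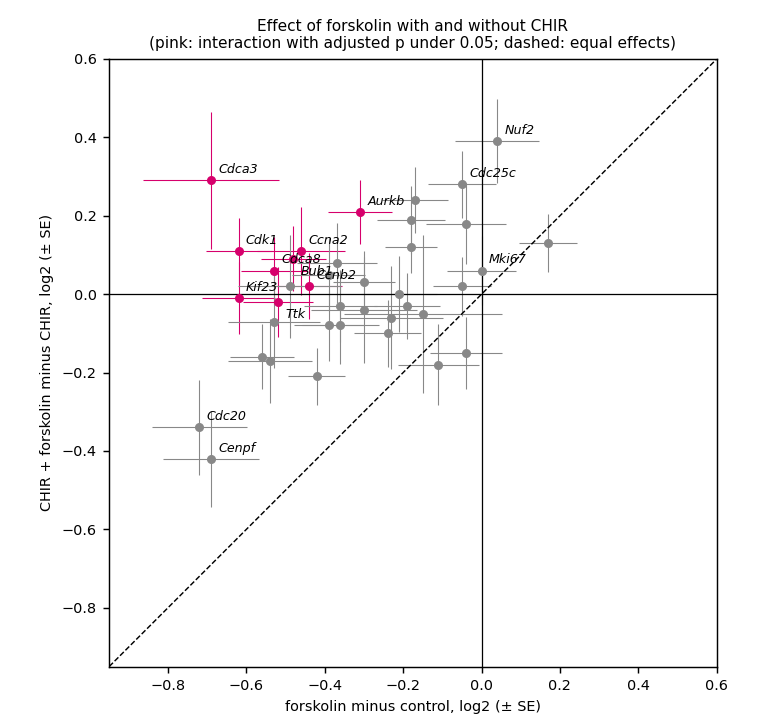
Log2 difference made by forskolin in cells with CHIR (vertical, combination minus CHIR) against that in cells without CHIR (horizontal, forskolin minus control), 1 point per member with standard errors; the dashed line marks equal differences, and the 9 members past the interaction threshold are pink. Most points lie left of 0 on the horizontal axis and near 0 on the vertical axis.

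The table is at the exon level, and the probe sets of each member were also counted singly, without regard to their place in the transcript. The 39 members had 681 probe sets. With CHIR, 654 of them (96.0%) lay above 0, against 52.6% of all 211195 probe sets, and in 527 (77.4%) the CHIR arrays all lay above the control arrays, against 16.1% of all. With forskolin, 590 (86.6%) lay below 0, against 51.0% of all, and in 320 (47.0%) the forskolin arrays all lay below the control arrays, against 13.4% of all. Every probe set lay above 0 with CHIR in 29 members, and every probe set lay below 0 with forskolin in 15. These counts depend on how many probe sets a gene has and are not set against all genes. Single probe sets could go against the gene: in Bub1b, 19 of 22 lay below 0 with forskolin, in a range of -1.14 to 1.17. For the combination against CHIR, 369 probe sets (54.2%) lay above 0, against 47.9% of all. Probe sets of a gene share transcripts and arrays and are not replicates.

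Other genes of the pathway were taken from 5 lists with 118 measured genes, none of them a member. Together 71 were higher and 2 lower with CHIR, 4 higher and 36 lower with forskolin, and 72 higher and 1 lower in the combination. Over all genes, 14.3% were called higher and 13.9% lower with CHIR. The shares were 6.07% and 8.92% with forskolin, and 14.3% and 14.7% in the combination. Foxm1 and Mybl2, transcription factors of G2/M genes, both rose with CHIR. Foxm1 read 10.41, 10.36 and 10.43 on the combination arrays, 10.40, 10.21 and 10.22 on the CHIR arrays, 9.42, 9.43 and 9.29 on the forskolin arrays and 9.83, 9.73 and 9.91 on the control arrays. Foxm1 arrays with forskolin lay below all control arrays, and both CHIR-treated groups lay above them. The log2 difference of Foxm1 was 0.58 in the combination, 0.45 with CHIR and -0.44 with forskolin (adjusted p = 0.00188), and its interaction was 0.57 (adjusted p = 0.00802). Mybl2 averaged 12.19 ± 0.11 in the combination, 12.28 ± 0.09 with CHIR, 11.46 ± 0.10 with forskolin and 11.60 ± 0.11 in controls, with differences from control of 0.60, 0.68 and -0.13.

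Of 21 regulators of the G2/M transition and its transcription, 12 were higher and 0 lower with CHIR, and 1 was higher and 6 lower with forskolin. The shares of all genes were 14.3% higher and 13.9% lower with CHIR, and 6.07% higher and 8.92% lower with forskolin. Mastl, a kinase that keeps mitotic phosphorylation in place, rose by 0.89 with CHIR and 1.15 in the combination. Lin52 and Lin9, MuvB subunits, rose by 1.16 and 0.79 with CHIR. E2f8, a repressor of the E2F family, fell by 0.53 with forskolin, while Rbl2, the pocket protein of the repressive complex of resting cells, rose by 0.34. Wee1, the kinase that restrains CDK1, was lower in the combination than with CHIR by 0.78 (adjusted p = 1.7e-05), with an interaction of -0.45 (adjusted p = 0.0307).

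Among 31 further centromere and checkpoint genes, 21 were higher with CHIR (14.3% of all genes) and 10 lower with forskolin (8.92%). Mis18a, which helps load the centromeric histone, rose by 1.25 with CHIR, and Ska3, of a complex that couples kinetochores to microtubules, by 1.11. Cenpu fell by 0.88 with forskolin, while Cenpi, another inner kinetochore gene, rose by 1.01 and averaged 11.50 ± 0.13 in the combination, 10.26 ± 0.20 with CHIR, 11.34 ± 0.07 with forskolin and 10.33 ± 0.04 in controls. Of 41 other mitotic genes, 32 were higher with CHIR (14.3% of all genes) and 19 lower with forskolin (8.92%). Among them was Kif4a, a chromosome motor, at 1.16 with CHIR. Psrc1 and Dlgap5, spindle proteins, were the 2 of this list higher with forskolin (6.07% of all genes), at 0.45 and 0.39.

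Of 14 subunits and partners of the anaphase-promoting complex, 2 were higher and 2 lower with CHIR, and 1 was lower with forskolin, shares near those of all genes. Cdc27 and Ube2s rose by 0.44 and 0.36 with CHIR, and Anapc11 and Anapc15 fell by 0.30 and 0.26. CHR letters occurred in 3 of 12 promoters of this list, against 28 of 37 of the other mitotic genes and 27.9% of all promoters. Whether CHR letters go with the response to CHIR or forskolin was not tested. Of 11 cohesin and condensin genes, 4 were higher with CHIR (14.3% of all genes). These were the condensin genes Ncapg2, Ncaph2 and Ncapd3, and Pttg1 (securin), and no cohesin subunit of the list was called. With forskolin 0 changed (1 higher and 1 lower at an unadjusted p under 0.05, limma). Over all genes, 6.07% were called higher and 8.92% lower with forskolin. No test of the difference between lists was run.

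**Figure D5:**
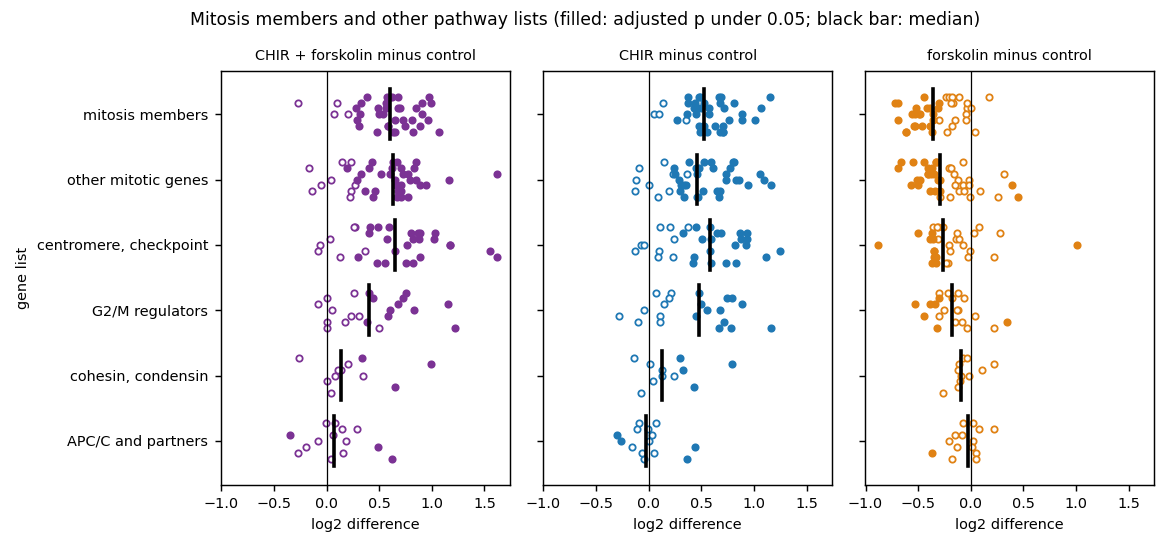
Log2 difference from control of each gene (points, filled where the adjusted p in limma was under 0.05) in the mitosis members and the 5 other lists, for the combination, CHIR and forskolin, with the median of each list as a black bar; vertical scatter within a row has no meaning. The medians of the members, the other mitotic genes and the centromere genes lie right of 0 in the combination and with CHIR and left of it with forskolin, and those of the anaphase-promoting complex (APC/C) lie near 0.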

How the data were processed

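RNA of 12 samples was hybridised to Affymetrix rat arrays, 1 array each, and samples were grouped by their labels. The authors deposited log2 values, 1 per probe set and array. Per the submitters' processing notes these came from Partek with RMA, a method of background correction, quantile normalisation and summary of probes. Software versions, settings and genome build: not given in the sources used here. No label gives the log base, which was read from the spread of values. RMA values are compressed near background.

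There were 211195 probe sets in all. The platform's annotation, from 2010, assigned 172924 of them 1 gene symbol. The 1661 with several symbols and the 36610 unnamed here entered no gene value. Of the 16623 symbols, 3649 were updated through the RefSeq genes of assembly GRCr8 and 96 could not be matched. A gene value was the median of its probe sets. The fit used limma 3.58.1 and R 4.3.3 (with version 1.17.8 of data.table, Python 3.11.15, pandas 2.3.3), with 4 group means over 12 arrays, eBayes without trend, two-sided tests and Benjamini-Hochberg adjustment over all genes at 0.05. The fit was tested on simulated data. The 7 comparisons are each treatment against control, the combination against each compound, CHIR against forskolin, and the interaction, in which the forskolin difference without CHIR is taken from that with CHIR. Precision is limited by 3 arrays per group. Alternatives covered probe set summaries, filters, array centring, moderation, the samples fitted, the replicate number and single arrays.

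The members and lists were chosen with earlier results of these data known. Values per array are given for Cdk1, Ccnb1, Plk1, Aurkb, Mki67 and Top2a and for the 4 members with the largest difference in each comparison against control and in the combination against CHIR. From each list of other pathway genes, Foxm1, Mybl2 and up to 3 genes per direction and comparison with the largest differences past the threshold could be named. Promoter sequences are from RefSeq, build GRCr8, and the series' own coordinates were not used.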

Additional observations from a re-analysis of the deposited data

Results flagged for a closer look

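By the interaction test in limma, 9 members passed the threshold for a forskolin difference that was not the same with CHIR as without it. Over all genes, 3.25% were called above 0 and 3.07% below. The count was 6 to 9 without single arrays and, as given above, depended strongly on how probe sets were joined. The interaction, on the log2 scale, was 0.98 for Cdca3, 0.73 for Cdk1, 0.61 for Kif23, 0.59 for Cdca8 and 0.57 for Ccna2. It was 0.56 for Bub1, 0.52 for Aurkb, 0.50 for Ttk and 0.45 for Ccnb2. Adjusted p-values ran from 0.00178 for Cdk1 to 0.0488 for Ccna2. Cdca3 rested on 3 probe sets, had the widest standard error of these genes (0.246) and overlapping arrays in the CHIR and control groups.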

How the results depend on the processing

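Over 204 single-member values, of which the interaction holds only the 9 that passed, and 4071 repeats, 3893 kept direction and side of the threshold, 148 lost the call, 9 gained it and 21 changed sign. With the brightest probe set as gene value, 40 values lost the call and 5 changed sign, and median differences were 0.46 in the combination, 0.44 with CHIR and -0.23 with forskolin against control, 0.71 for the combination and 0.78 for CHIR against forskolin, and 0.28 for the interaction. Counts then were 13 lower with forskolin, 1 higher and 0 lower in the combination against CHIR, and 2 for the interaction. With the mean of probe sets the interaction count was 22, with 1038 genes of the table called above 0. Medians against forskolin were then 0.88 for the combination and 0.87 for CHIR. Centred arrays gave medians of 0.64 in the combination and -0.32 with forskolin. With only the groups compared in the fit, the combination against CHIR had 1 member higher and 0 lower. It had 2 lower with only bright genes, with genes above background or with a trend. The cause of these changes was not tested. Leaving out 1 array at a time, members higher numbered 34 to 36 with CHIR (median 0.52 to 0.57), 32 to 35 in the combination (0.58 to 0.62), 38 to 39 for the combination against forskolin (0.94 to 1.02), 38 for CHIR against forskolin (0.88 to 0.95) and 6 to 9 for the interaction (0.30 to 0.38). Members lower with forskolin numbered 15 to 22 (median -0.36 to -0.29). The combination against CHIR had 0 to 2 higher and 0 to 1 lower (median -0.01 to 0.04). Signs changed for forskolin against control in Mad2l1 (0.00 centred), Mki67 (0.04 centred, -0.07 to 0.07 without an array), Nuf2 (-0.02 by the mean, -0.07 to 0.13 without an array) and Ncapg (-0.30 to 0.08 without an array). They changed for the combination against control in Cdc20 (-0.02 to 0.25 without an array). They changed for the combination against CHIR in Ccnb1 (-0.13 brightest, 0.00 to 0.12 without an array), Plk1 (-0.11 mean, -0.01 brightest), Ncapg (0.10 mean, 0.21 brightest, -0.18 to 0.16 without an array), Espl1 (-0.12 to 0.15 without an array) and Cdca3 (0.00 brightest), and for the combination against forskolin in Cenpf (-0.05 brightest). Of these only that last difference had passed the threshold. No pairing by replicate number was seen: deviations of samples with the same number correlated at -0.242 to 0.137, against -0.178 to 0.333 for other numbers. These values do not settle whether samples with the same number were handled together. With the replicate number as a block, 35 members were higher with CHIR, 22 lower with forskolin, 35 higher in the combination, 2 higher and 1 lower against CHIR, and 8 passed the interaction.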

Other observations

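Of the pathway genes outside the list called higher with forskolin, which included Psrc1, Dlgap5 and Rbl2, Cenpi had the largest difference. Its log2 difference was 1.24 in the combination against CHIR (adjusted p = 1.67e-06), 1.01 with forskolin against control (adjusted p = 9.39e-06) and -1.08 with CHIR against forskolin (adjusted p = 1.2e-06). Against control it was 1.17 in the combination (adjusted p = 9.16e-07) and -0.07 with CHIR alone (adjusted p = 0.696, limma). Cenpu was also at 1.17 in the combination against control (adjusted p = 0.000683), but at -0.88 with forskolin against control (adjusted p = 0.011), with an interaction of 1.23 (adjusted p = 0.024).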
